A study of Mus musculus with 11 samples.

Results

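First-intron regions are the accessible chromatin regions that lay wholly inside intron 1 of the longest protein-coding transcript of a gene, overlapped no annotated exon and were more than 1 kb from every annotated transcript start. Of the 94963 regions of the pooled list, 9252 met this rule, a share of 9.74% (95% Wilson interval 9.56 to 9.93). The regions came from an ATAC-seq experiment, in which the Tn5 transposase cuts open DNA, on MPC2 cells, a conditionally immortalized mouse mesenchymal progenitor line that is a single clone. Cultures were either undifferentiated mesenchymal stem cells (MSC) or cells differentiated for 3 weeks into osteocyte-like cells, and each state was given DMSO vehicle or 50 µM FG-4592, an inhibitor of the oxygen-sensing HIF prolyl hydroxylases, for 48 h. The labels give 3 MSC vehicle, 3 MSC FG-4592, 2 osteocyte vehicle and 3 osteocyte FG-4592 cultures, all 11 of the same clone. The list holds 1 level per region, the log2 of the counts scaled to library size (CPM) averaged over the cultures by the authors, so no group could be compared with another and no value has a replicate error. Intervals below are at 95% and cover counting error only, and regions of 1 gene are not independent of each other.

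The first intron begins downstream of the first exon and is often the longest intron of a gene. Enhancers of the gene itself, or of another gene, frequently lie in it. Accessible DNA within it marks places where transcription factors have displaced nucleosomes, among them AP-1 (FOS and JUN dimers), RUNX proteins of the osteoblast lineage, the TEAD partners of YAP and TAZ, the HIF factors that bind hypoxia response elements (HRE), and CTCF, which holds the anchors of chromatin loops. The 6 sequences below show the central 250 bases of selected first-intron regions on the plus strand of mm10 (GRCm38). They are the strongest region of each of the 3 genes with most regions per kb of intron 1 among those with at least 3 regions (Tgfbi, Omd and Hhipl1), the region with the highest level (Trim8), the stronger region of Egln1, which encodes the prolyl hydroxylase PHD2 that FG-4592 inhibits, and the strongest region with a CTCF core match (Smyd3, chosen after its values were seen). Capitals mark matches to AP-1, HRE core, RUNX or TEAD motifs in the first 5 sequences and the CTCF core in Smyd3.
Tgfbi, chr13:56611238-56611487: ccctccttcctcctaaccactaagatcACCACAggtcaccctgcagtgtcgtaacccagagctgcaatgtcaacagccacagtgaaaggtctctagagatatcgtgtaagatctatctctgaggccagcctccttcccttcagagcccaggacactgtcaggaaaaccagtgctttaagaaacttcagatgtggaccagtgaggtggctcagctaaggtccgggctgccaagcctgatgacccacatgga
Omd, chr13:49584412-49584661: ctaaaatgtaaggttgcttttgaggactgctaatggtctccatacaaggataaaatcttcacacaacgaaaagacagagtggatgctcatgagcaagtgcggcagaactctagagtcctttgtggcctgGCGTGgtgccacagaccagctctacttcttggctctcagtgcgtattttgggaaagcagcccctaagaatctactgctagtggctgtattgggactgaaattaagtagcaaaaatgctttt
Hhipl1, chr12:108310405-108310654: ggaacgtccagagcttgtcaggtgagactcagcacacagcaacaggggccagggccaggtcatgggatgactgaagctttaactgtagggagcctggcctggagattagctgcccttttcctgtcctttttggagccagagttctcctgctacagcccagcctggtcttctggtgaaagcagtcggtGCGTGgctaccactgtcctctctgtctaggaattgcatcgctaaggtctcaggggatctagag
Trim8, chr19:46503884-46504133: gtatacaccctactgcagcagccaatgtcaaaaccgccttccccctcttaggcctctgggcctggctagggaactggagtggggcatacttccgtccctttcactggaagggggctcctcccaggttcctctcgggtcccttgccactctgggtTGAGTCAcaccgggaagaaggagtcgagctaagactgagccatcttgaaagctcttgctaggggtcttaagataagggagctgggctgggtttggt
Egln1, chr8:124926451-124926700: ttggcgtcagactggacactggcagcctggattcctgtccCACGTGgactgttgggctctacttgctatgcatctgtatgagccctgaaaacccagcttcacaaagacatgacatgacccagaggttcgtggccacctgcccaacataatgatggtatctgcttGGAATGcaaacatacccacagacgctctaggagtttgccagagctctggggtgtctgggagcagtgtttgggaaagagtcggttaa
Smyd3, chr1:179477207-179477456: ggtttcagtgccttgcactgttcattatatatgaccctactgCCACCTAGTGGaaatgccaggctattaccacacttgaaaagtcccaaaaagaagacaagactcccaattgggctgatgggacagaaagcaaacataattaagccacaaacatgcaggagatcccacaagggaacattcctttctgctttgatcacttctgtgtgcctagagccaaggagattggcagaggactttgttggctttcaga
The Tgfbi stretch held 1 RUNX match, those of Omd and Hhipl1 1 HRE core match each, and that of Trim8 1 AP-1 match. The Egln1 stretch held 1 TEAD match and a palindrome that reads as the HRE core on both strands.

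First-intron regions were weaker than promoter regions and slightly stronger than those in later introns. Their median level was 2.03 log2 CPM (quartiles 1.21 and 2.99, range −0.85 to 6.60), against 1.82 in the 19526 regions of later introns, 1.87 in intergenic regions, 3.89 within 1 kb of a transcript start and 2.12 over the whole list. They carried 6.20% of the summed CPM of the list with 9.74% of its regions. Their median width was 423 bp (range 200 to 2344) against 397 bp in later introns, and width and level were closely related (Pearson r = 0.87 between level and log2 width over the 9252 regions, a description across regions). The level difference between first and later introns was 0.21 log2 units overall and 0.06 when averaged within 19 bins of width, where first introns were higher in 16 of 19 bins. It was above 0 on 18 of 19 autosomes, with a range from −0.09 on chromosome 13 to 0.39. A level of 3 or more was reached by 24.7% of first-intron regions and 20.01% of later-intron regions, a difference of 4.72 percentage points (Newcombe interval 3.68 to 5.76). At 4 or more the shares were 9.003% and 7.04%, and at 5 or more 1.88% and 1.52%. The highest level was 6.60 in first introns and 6.85 in later introns. Base composition was that of distal regions, with a median GC content of 48.8% against 48.1% in later introns and 56.8% at promoters. CpG-rich DNA had at least 55% GC and an observed-to-expected CpG ratio of at least 0.6. It was found in 65 first-intron regions (0.703%) and in 34 later-intron regions (0.174%), a difference of 0.53 percentage points (0.36 to 0.73). Intergenic regions gave 0.890%, other genic regions 0.585% and promoters 41.0%.

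The distance from the start of the longest coding transcript to the midpoint of a first-intron region had a median of 18646 bp. It was measured on 9413 pairs of a region and a gene, because 125 regions lay in intron 1 of more than one gene. The nearest midpoint was at 1134 bp, the quartiles were 8123 and 43512 bp, and 10% lay beyond 96230 bp. Within 10 kb of the start lay 30.7% of the pairs, within 20 kb 52.3%, and beyond 100 kb 9.51%. Regions in later introns of the same transcripts lay at a median of 62785 bp. Moving the limit at transcript starts from 1000 bp to 500 bp gave 9890 first-intron regions, and moving it to 2000 bp gave 8302.

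Regions that cleared exons and starts as a whole were most frequent in the part of the first intron between 5 and 50 kb from the start. Density was counted per Mb of usable intron sequence, meaning sequence outside every exon, more than 1 kb from every start and without unknown bases. It was 46.0 regions per Mb in the 201 Mb of first introns and 33.3 per Mb in the 586 Mb of later introns, a ratio of 1.38 (exact interval 1.35 to 1.41). First introns held 35.3 per Mb at 1 to 2 kb, 37.2 at 2 to 5 kb, 56.99 at 5 to 10 kb, 59.5 at 10 to 20 kb and 52.8 at 20 to 50 kb. At the same distances later introns held 21.2, 22.4, 35.4, 37.7 and 41.5 per Mb. The density then fell in first introns to 40.5 per Mb at 50 to 100 kb and 24.4 at 100 to 200 kb, while later introns held 42.9 and 35.2 per Mb. First introns were thus denser by 1.66-fold (1.24 to 2.27) in the nearest bin and by 1.27-fold (1.21 to 1.33) at 20 to 50 kb, did not differ beyond counting error at 50 to 100 kb (ratio 0.95, 0.89 to 1.01), and were sparser at 100 to 200 kb (ratio 0.69, 0.63 to 0.77). Summed over the bins the ratio was 1.31 (1.28 to 1.35). It depended on the rule that the whole region must clear exons and starts, and later introns are shorter, at a median of 1246 bp against 2765 bp for first introns. When only the midpoint had to clear them, the ratio within bins was 1.16 (1.13 to 1.197), with 1.37 at 1 to 2 kb, 1.35 at 10 to 20 kb and 0.88 (0.83 to 0.94) at 50 to 100 kb, and the density at 1 to 2 kb was 55.2 per Mb instead of 35.3, no longer below the 54.2 at 20 to 50 kb.

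**Figure D1:**
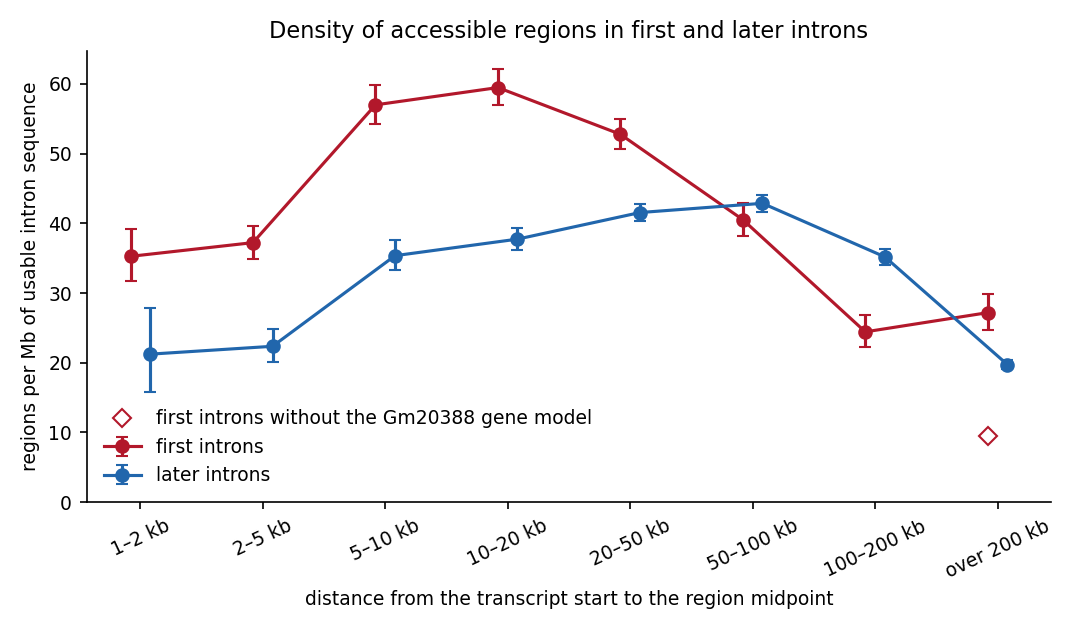
Regions per Mb of usable intron sequence (vertical axis) by distance from the transcript start (horizontal axis) in first introns (red) and later introns (blue), with exact Poisson 95% bars. First introns rise to 59.5 per Mb at 10 to 20 kb and lie below later introns at 100 to 200 kb, and the open diamond shows 9.49 per Mb beyond 200 kb without the Gm20388 gene model.

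The bin beyond 200 kb was set by 1 gene model. Gm20388 on chromosome 8 is annotated with an intron 1 of 4.38 Mb (chr8:119910940-124295357) that spans 66 other coding genes, and it held 332 regions, 3.53% of all pairs. Beyond 200 kb first introns held 27.2 regions per Mb with it and 9.49 without it, against 19.7 in later introns, so that the ratio of 1.38 (1.24 to 1.52) became 0.48 (0.40 to 0.58). Without this model 8982 first-intron regions remained, and the median distance was 17660 bp.

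Composition changed with distance. CpG-rich regions made up 4.25% of pairs at 1 to 2 kb (3.85% in later introns) and 2.65% at 2 to 5 kb (0.888%). Between 5 and 200 kb they made up at most 0.50% in any bin. The shares were 0.50% against 0.28% in later introns at 5 to 10 kb and 0.198% against 0.236% at 10 to 20 kb. They were 0.245% against 0.270% at 20 to 50 kb and 0.347% against 0.128% at 50 to 100 kb. The difference at like distance was not tested. The median width rose from 322 bp at 1 to 2 kb to 460 bp at 20 to 50 kb. The median level was highest at 2 to 5 kb, at 2.26 log2 CPM, and lowest at 100 to 200 kb, at 1.65, where later introns had 1.81.

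A first-intron region was found in 3538 of the 20385 coding genes with an intron, a share of 17.4% (16.8 to 17.9). Of these genes 1724 had exactly 1 region, 698 had 2 and 1116 had 3 or more, and these 1116 genes held 66.9% of the pairs. The presence of a region went with the length of the intron, with a median of 21419 bp in genes with a region and 1914 bp in genes without one. The share of genes with a region was 0.255% for introns under 2 kb, 5.87% at 2 to 5 kb, 19.6% at 5 to 10 kb, 42.2% at 10 to 20 kb, 66.1% at 20 to 50 kb, 75.04% at 50 to 100 kb and 69.1% above 100 kb. No usable base was left in 6303 of the 20385 first introns. Compared with later introns of the same length, the density was not distinguishable at 2 to 5 kb (ratio 0.95, 0.83 to 1.07) and was 1.60-fold higher (1.52 to 1.67) at 20 to 50 kb, where first introns held 62.7 regions per Mb.

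Among the 1116 genes with at least 3 regions, Tgfbi, Omd, Hhipl1 and Tnn had the most regions per kb of intron 1. The median of these genes was 0.111 regions per kb. Tgfbi, which encodes a matrix protein induced by TGF-β, ranked highest with 3 regions in the 4459 bp of chr13:56609781-56614239, or 0.673 per kb (exact Poisson interval 0.139 to 1.97). Their levels were 3.03, 1.19 and 0.86 log2 CPM at 1777, 2406 and 2907 bp from the start, so that the level fell with each step into the intron. Omd, which encodes the bone matrix proteoglycan osteomodulin, followed with 0.622 per kb, from 3 regions with levels of 1.37, 2.44 and 1.51 in 4820 bp. Hhipl1 had 0.5995 per kb (levels 1.94, 2.59 and 3.21) and Tnn, which encodes the matrix glycoprotein tenascin-W, 0.536 per kb (levels 2.38, 2.58 and 4.06). In both genes the region farthest from the start was the strongest.

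Lmna, the gene of the nuclear lamins A and C, had the most regions of the 10 densest genes, with 7 in 14316 bp or 0.489 per kb (0.197 to 1.01). Its levels ran from 1.18 at 1177 bp to 3.53 at 12005 bp, with the strongest in the distal part of the intron. Kif21b, which encodes a kinesin motor, had 6 regions in 12836 bp (0.467 per kb). Of these 5 lay between 3834 and 6495 bp with levels of 1.90 to 3.10, and the sixth, at 8939 bp, reached 4.40. All but the weakest were above the promoter region of the gene at 2.34. The remaining 4 genes were Nbl1 (a secreted BMP antagonist, 0.418 per kb), Igfbp5 (an IGF-binding protein made by osteoblasts, 0.411), Bcl6 (a transcriptional repressor, 0.401) and Dpep1 (a membrane dipeptidase, 0.395). Bcl6 held the strongest region among them, at 5.96 log2 CPM and 1552 bp wide, above its promoter region at 5.21. Igfbp5 was the opposite case, with 4 regions at a median level of 2.11, the lowest at 1.78 and none above its promoter region at 2.57. Tgfbi and Tnn had no listed region within 1 kb of the start of their longest transcript. The gene just below these 10, H13, had 0.386 per kb, and the intervals of all 10 overlapped, so their order is a description. Tgfbi, Omd, Hhipl1, Tnn, Nbl1 and Dpep1 each held 3 regions, the minimum required, so their order among themselves is that of intron length. The intervals make no allowance for the choice of the 10 genes by their density. The order also leaned on neighbouring regions being listed apart: with regions within 500 bp joined, 1 of the 10 genes stayed among the 10 densest, and with at least 5 regions required, 2 did (Lmna and Kif21b).

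**Figure D2:**
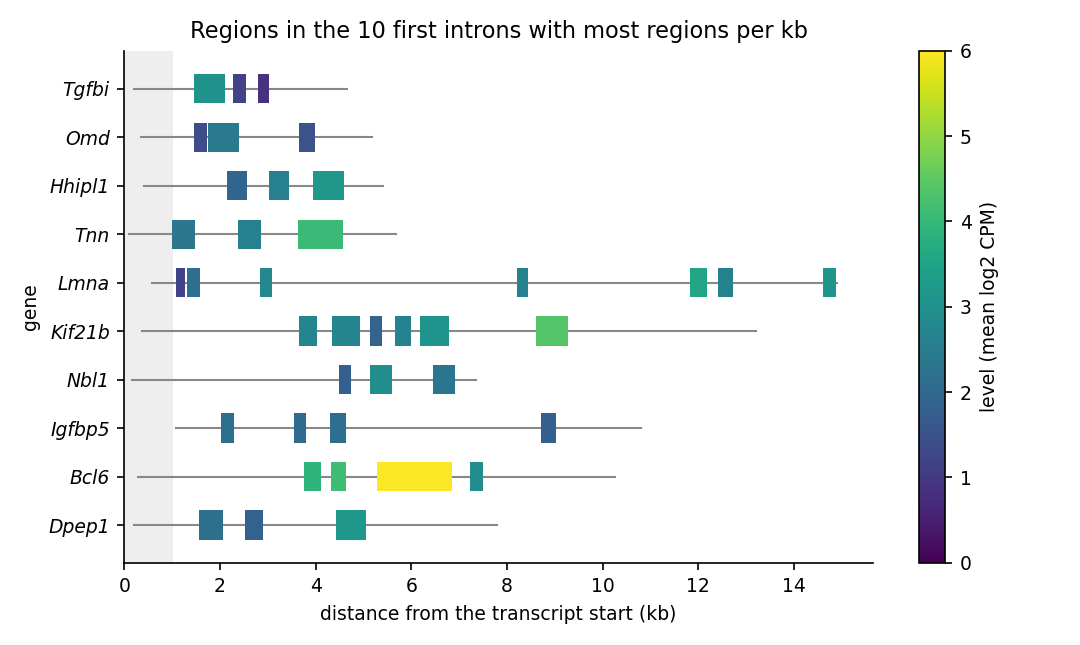
Intron 1 (grey line) and its regions (bars, drawn to width) against distance from the transcript start in kb. The genes are the 10 with most regions per kb among those with at least 3 regions. Bar colour gives the level in mean log2 CPM, and grey shading marks the first kb. Lmna shows 7 regions spread over 14316 bp, and the widest and brightest bar is the Bcl6 region at 5.96.

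By number of regions rather than density, long introns led. After Gm20388 came Cmss1 with 34 regions in 283122 bp, Ext1 with 26, Fmnl2 with 25, Filip1l with 23, Magi1 with 21, and Cmip, Palm2, Agap1 and Nhs with 19 each. Ext1 encodes an enzyme of heparan sulfate synthesis, Fmnl2 a formin that elongates actin filaments and Magi1 a scaffold protein of cell junctions. The Filip1l intron lies on the opposite strand inside that of Cmss1, so its 23 regions were counted for both genes. Apart from Gm20388, at 0.0757 per kb, these introns had densities of 0.0618 (Magi1) to 0.160 per kb (Fmnl2). Their median levels ranged from 1.06 in Nhs, on the X chromosome, to 2.66 in Fmnl2.

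**Figure D3:**
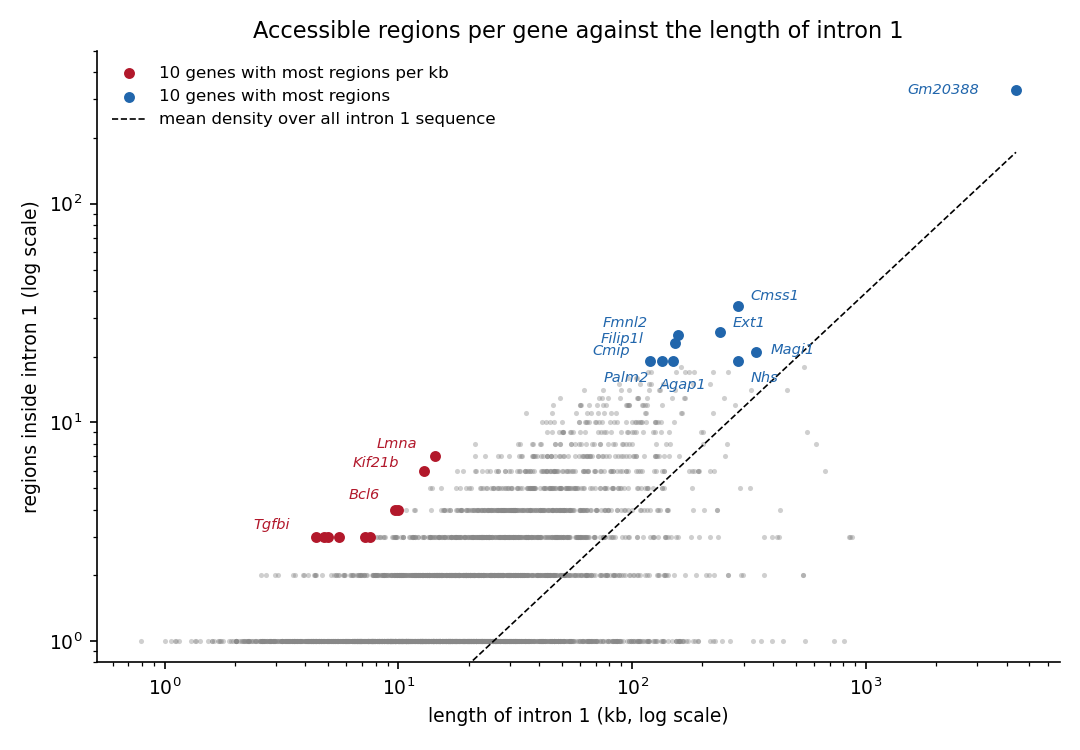
Number of regions inside intron 1 against the length of intron 1 in kb, both on log scales, for the 3538 genes with at least 1 region (grey points). The 10 densest genes among those with at least 3 regions (red) have introns of 4459 to 14316 bp. The 10 genes with most regions (blue) have introns above 100 kb, and the dashed line marks the mean of 0.0392 pairs per kb.

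The first-intron regions with the highest levels lay at very different distances. The Trim8 region reached 6.60 log2 CPM at 2307 bp from the start, was 1245 bp wide and held the AP-1 match shown above. Trim8 encodes a ubiquitin ligase. Other regions of high level lay in Ston1 (6.41 at 3236 bp), Bcl2, the gene of an inhibitor of apoptosis (6.38 at 84578 bp), and Creb3l1, which encodes an endoplasmic reticulum-bound transcription factor of osteoblasts (6.29 at 15866 bp). Lower levels followed in Angpt4 (6.20), Dock4 (6.19), Ksr1 (6.18), Dnm1 (6.16) and Fam129b (6.15), and the region just below them lay in 1700012B07Rik at 6.13. None of these regions was CpG-rich, all were at least 1185 bp wide, and 1 of them, that of Trim8, held an AP-1 match in its central 200 bp.

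Genes with a first-intron region more often had an accessible promoter. A region within 1 kb of the start of the longest transcript was listed for 79.5% (78.1 to 80.8) of the 3538 genes with a first-intron region and for 57.9% (57.2 to 58.7) of the 16847 without, and for 88.3% of the genes with 3 or more. The gap held within classes of intron length above 10 kb, with 82.3% against 62.1% at 10 to 20 kb, 84.5% against 59.5% at 20 to 50 kb, 84.7% against 50.7% at 50 to 100 kb, and 69.7% against 37.3% above 100 kb. It was small at 2 to 5 kb, with 64.1% (58.0 to 69.8) against 58.4% (56.9 to 59.9), where the intervals overlap. In the 2813 genes with both, the strongest first-intron region had a median level of 2.66 and the promoter 5.13 log2 CPM, and the intron region was the stronger in 409 genes (14.5%). The 2 levels were weakly related across these genes (Pearson r = 0.18, Spearman rho = 0.16), which share 1 pooled list and are not independent replicates.

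Motifs were counted on either strand in the central 200 bp of each region, so that the same length was searched in every region, and in 951170 tiles of 200 bp of usable first-intron sequence outside regions. No motif contained another. AP-1 (TGACTCA or TGAGTCA) was found in 13.9% of first-intron regions (13.2 to 14.6) against 3.19% of tiles, a 4.35-fold difference. Later introns gave 14.0%, intergenic regions 14.0%, promoters 6.05% and the whole list 12.1%. The difference from later introns was −0.14 percentage points (−0.99 to 0.73), which does not pass its counting error, and −0.997 (−2.28 to 0.32) among regions at least 500 bp wide. Over whole regions, which are wider in first introns, it was 1.33 (0.28 to 2.40), so that the direction turned and the interval no longer included 0. The AP-1 share was 11.02% (9.81 to 12.4) in the 2313 regions of lowest level and 15.7% (14.3 to 17.3) in the 2313 of highest level. RUNX (TGTGGT) was found in 25.96% of first-intron regions, 25.8% of later-intron regions, 14.5% of tiles and 22.2% of the list, and TEAD (GGAATG) in 15.5%, 15.5%, 10.5% and 14.0%. Over all distances neither differed between first and later introns beyond counting error, with intervals of the difference of −0.95 to 1.21 and −0.88 to 0.91 percentage points. The HRE core (ACGTG or GCGTG), a short motif that includes a CpG, was found in 19.2% against 19.8% in later introns, 14.8% of tiles, 39.4% of promoters and 24.2% of the list. At like distance it was less frequent in first introns at 5 to 10 kb (19.04% against 22.5%, difference −3.44, −6.64 to −0.31) and at 10 to 20 kb (18.7% against 21.6%, −2.94, −5.37 to −0.49) and more frequent beyond 200 kb (22.1% against 17.8%), where all but 121 of the 439 first-intron regions lay in gene models with an intron 1 over 1 Mb. The interval included 0 in the other bins. For AP-1 the interval was below 0 at 10 to 20 kb (−4.35 to −0.20) and above 0 at 50 to 100 kb (0.29 to 5.04), for RUNX below 0 at 2 to 5 kb (−13.3 to −1.99), and for TEAD it included 0 in all 8 bins. The GC box (GGGCGG), which Sp1 family factors bind, was found in 5.47% against 4.60%, a difference of 0.87 percentage points (0.33 to 1.43), with 12.2% over the list and 1.90% in tiles. This difference did not hold at like distance from the start. First introns had the lower share in 5 of 8 distance bins, among them 20 to 50 kb (4.17% against 5.23%, difference −1.06, −2.04 to −0.01), and the interval was above 0 only beyond 200 kb (10.5% against 3.68%). Without the Gm20388 gene model the overall difference was 0.64 (0.10 to 1.20), and the interval was above 0 in no bin. Tiles had a GC content of 42.5% and regions a median of 49.5% in their central 200 bp, and the part of base composition in the excess over tiles was not tested.

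**Figure D4:**
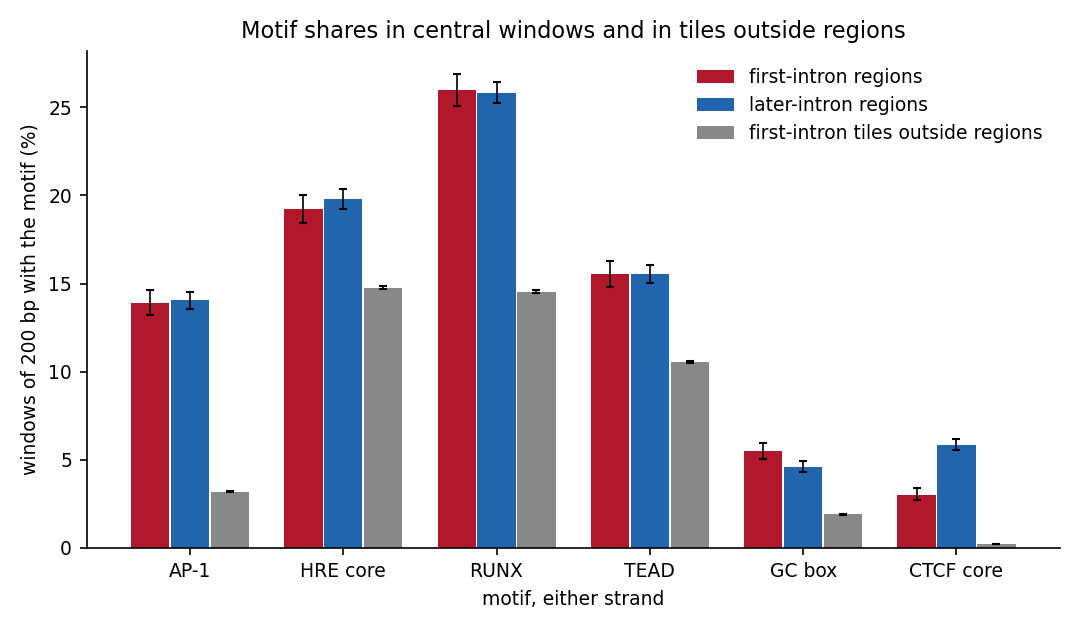
Share of 200 bp windows with each motif, in percent, for the centres of first-intron regions (red), of later-intron regions (blue) and for tiles of first-intron sequence outside regions (grey), with Wilson 95% bars. AP-1, HRE core, RUNX and TEAD bars of first and later introns overlap, while the CTCF core stands at 3.03% against 5.86%.

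The CTCF core, a pattern of 11 bases, was about as frequent in tiles of first introns (0.219%) as in tiles of later introns (0.217%) but less frequent in first-intron regions. It was found in 280 of the 9252 first-intron regions (3.03%, 2.70 to 3.40) and in 1144 of the 19526 later-intron regions (5.86%, 5.54 to 6.20), a difference of −2.83 percentage points (−3.31 to −2.34). Among regions at least 500 bp wide it was −0.78 (−1.27 to −0.25). Intergenic regions gave 6.20%, exon regions 7.67% and the whole list 5.14%. Promoters gave 3.21%, which first introns did not differ from beyond counting error (difference −0.18 percentage points, −0.59 to 0.25). Per Mb of usable sequence, first introns held 1.39 regions with a CTCF core against 1.95 in later introns, a ratio of 0.71 (0.62 to 0.81), while regions without one were 1.42-fold denser in first introns (1.39 to 1.46). The share was lower in first introns on 19 of 19 autosomes, with the interval of the difference below 0 on 10 of them. It was also lower in 5 of 5 groups of regions of like level, from 1.21% against 2.08% in the strongest group to 5.01% against 9.63% in the middle one. Among 5 groups of like width it was lower in all 5, but in the widest group the shares were 0.85% and 1.04% and the interval included 0 (−0.68 to 0.39). CTCF-core regions were narrow, at a median of 308 bp, where other first-intron regions had 428 bp.

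By distance, the interval of the difference was below 0 in the 4 bins between 5 and 100 kb from the start. The CTCF core share was 2.76% against 7.55% at 5 to 10 kb, 2.32% against 7.74% at 10 to 20 kb (difference −5.41 percentage points, −6.76 to −4.11), 2.41% against 6.22% at 20 to 50 kb and 3.13% against 5.40% at 50 to 100 kb. Closer to the start, the share was 3.68% against 9.62% at 1 to 2 kb, where later introns had only 52 pairs (difference −5.93, −17.0 to 0.06), and 5.61% against 6.80% at 2 to 5 kb (−1.19, −4.64 to 1.59), and both intervals included 0. First introns were lower in 7 of the 8 distance bins, and beyond 200 kb the shares were 5.47% and 5.30%. Outside chromosome 18, which was left out of this search, the strongest first-intron region with a match was the Smyd3 region shown above. Its level was 5.41 log2 CPM, and it lay 40702 bp from the start.

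**Figure D5:**
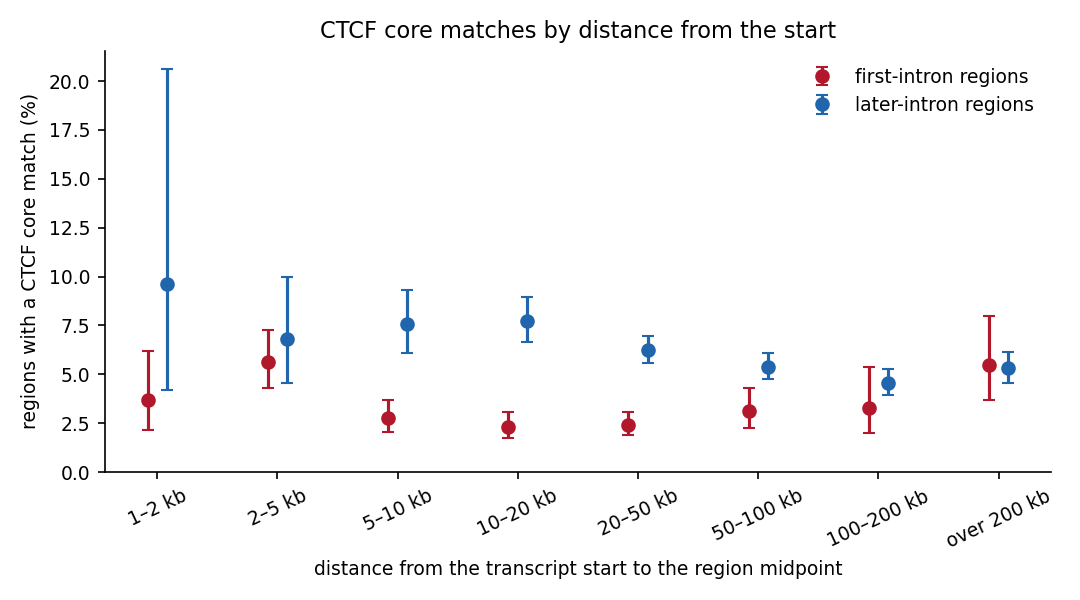
Share of regions with a CTCF core match, in percent, by distance from the transcript start, for first-intron (red) and later-intron regions (blue), with Wilson 95% bars. Between 5 and 50 kb the first-intron shares lie at 2.32% to 2.76% and the later-intron shares at 6.22% to 7.74%.

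Among genes of the hypoxia response, 11 of 36 (30.6%) had a first-intron region, against a background of 17.4% of all coding genes with an intron. The lower limit of the interval of this share lay just above that background. The 36 genes had a median intron 1 of 4411 bp, against 2765 bp over all genes, and held 90.6 regions per Mb of usable sequence (58.6 to 134) against 45.5 per Mb over all genes. Of the lists of other cell types described below, haematopoietic genes gave 38.9% at 96.6 per Mb and neuronal genes 30.0% at 5.07 per Mb. Genes of other mesenchymal lineages gave 33.3% at 36.3 per Mb, and no epithelial gene had a region. Whether the excess over all genes is particular to hypoxia genes was not tested. Egln1 had 2 regions in its 32452 bp intron. The stronger, 22748 bp from the start, was 1073 bp wide and had a level of 5.11, above the promoter region of Egln1 at 4.72, and the other, at 26610 bp, had a level of 3.25 and a RUNX match. Egln3, which encodes the related hydroxylase PHD3, had 1 region at 11672 bp with a level of 2.62 and an HRE core match. Epas1, which encodes HIF-2α, had 5 regions between 9346 and 36610 bp with levels of 1.69 to 4.28, of which the strongest, at 31421 bp, held an HRE core match. Plod2, a collagen lysyl hydroxylase gene, had 6 regions up to 3.79, Pfkfb3, a regulator of glycolysis, had 4 up to 2.58, and P4ha1, a collagen prolyl hydroxylase gene, had 2 up to 2.57. Bnip3 and Bnip3l, both mitophagy genes, had 1 each, at 4.37 and 1.19, as did Ndrg1 (2.77), Pfkfb4 (1.95) and Hif3a (1.70). A region of Bnip3, Hif3a, Pfkfb3 and Pfkfb4 also held an HRE core match, and no region of Plod2, P4ha1, Bnip3l or Ndrg1 did. This short motif was found in 19.2% of all first-intron regions and 14.8% of tiles, and its share in this list was not tested. Of the 25 genes with no region, 13 had no usable base in intron 1, so no region could be counted there. Hif1a, Vegfa and Slc2a1 were among the others.

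Among osteoblast and osteocyte genes 16 of 33 (48.5%, 32.5 to 64.8) had a first-intron region, against 17.4% of all coding genes, with 120 regions per Mb (89.0 to 158) against 45.5. Their median intron 1 was longer, at 4899 bp against 2765 bp. Pth1r, the parathyroid hormone receptor gene, had the strongest, at 5.50 log2 CPM, 1206 bp wide and 9732 bp from the start, above its promoter region at 5.35. Sp7, which encodes the osteoblast transcription factor osterix, had 1 region 3401 bp from the start at 4.59, also above its promoter region at 4.06. Alpl, the tissue-nonspecific alkaline phosphatase gene, had 8 regions between 1993 and 33346 bp with levels of 0.32 to 3.92, and 1 of them exceeded 3. Ank, which encodes a membrane protein of pyrophosphate and citrate export, had 12 regions up to 3.25, and Lrp5, a Wnt co-receptor gene, had 6 up to 4.33. Sparc, the osteonectin gene, had 3 between 1877 and 5555 bp, up to 4.18. Runx2 had 1 region in intron 1 of its longest transcript, at 8394 bp with a level of 3.34 and an HRE core match, Tnfsf11 (RANKL) 1 at 1.53 and Vdr, the vitamin D receptor gene, 1 at 2.70. Of the 17 genes with none, 6 had no usable base in intron 1. Dmp1, Phex, Fgf23, Sost and Mepe, genes expressed in osteocytes, had 3462, 4280, 4237, 1747 and 735 usable bases and no region. At 45.5 regions per Mb over all genes, that sequence is too short to tell whether these genes lack such regions. Pdpn, Gja1 and Enpp1 of the same list had 1, 1 and 2 regions.

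Among mesenchymal genes and regulators of the AP-1, TEAD and NFI families, 10 of 28 with an intron (35.7%, 20.7 to 54.2) had a region, against 17.4% of all coding genes, with 125 per Mb (91.9 to 166) against 45.5. Their median intron 1 was 3784 bp. Smad3, a mediator of TGF-β signalling, had 14 regions between 10003 and 89074 bp. Its levels ran from 1.10 to 4.77, and the strongest lay at 79941 bp. Prrx1, a transcription factor gene of limb mesenchyme, had 9 regions up to 3.86, and Tead1 had 7 between 18038 and 75135 bp, up to 4.59 in the region nearest to the start. Lrp1, an endocytic receptor gene, had 1 region at 5.30. Of the 18 genes with none, 9 had no usable base. Nfia, Nfib and Nfix, the NFI genes of the list, had no region in 4003, 3991 and 80 usable bases, and neither did Tead3, Pdgfra or Fosl1. The median over genes of the strongest first-intron level was 3.31 in this list, 3.05 in the osteoblast list and 2.62 in the hypoxia list, against 2.53 over all 3538 genes with a region.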

How the data were processed

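ATAC-seq libraries of 11 MPC2 cultures were processed by the authors, who trimmed reads with Trim Galore, aligned them to mm10 with Bowtie2, removed duplicates with Picard 2.17.8, called peaks with MACS2 2.2.7.1, merged peaks, removed ENCODE blacklist regions, counted cuts with pyDNase, kept regions with at least 10 cuts in more than 1 sample and used TMM in edgeR 3.24.3 (versions from the submitters' processing notes). One library that the authors removed was not analysed here. A shift for the Tn5 offset is not given in the sources used here, and merged peaks widen a region with each library that contributes.

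The deposited list held 94963 regions with 1 value each, read as log2 CPM averaged over all cultures by the authors. This reading was inferred from the values, 460 of which were below 0 and whose powers of 2 summed to 1012761. Depth per culture was therefore unknown, and no group comparison was possible from this list.

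Regions were joined to GENCODE vM21 with Python 3.11.15, numpy 2.4.6, pandas 2.3.3 and scipy 1.17.1. All regions fitted within the chromosomes of the GRCm38 reference, which is the same assembly as mm10, and coordinates are 1-based. The longest transcript was the one with the largest summed exon length. Classes were assigned in the order promoter (within 1000 bp of any start), exon, first intron, later intron, other genic and intergenic. Shares have Wilson, differences of shares Newcombe, densities exact Poisson and density ratios exact binomial intervals. Matches to motifs were sought on both strands. The text names the 10 genes with most regions per kb among those with at least 3 regions, the 10 genes with most regions, the 10 regions of highest level (of which 1 is not reported here), the regions of Egln1 and genes of fixed lists. The members, lists and motifs were chosen with earlier results of these data known. The counting was tested on simulated regions and the motif search against a plain text search. Alternatives concerned the distance to starts, the choice of transcript, the genes behind starts and exons, region width, joining, chromosome 16, region midpoints, whole regions for motifs, the density measure of genes and, chosen after seeing the data, long gene models and the CTCF core.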

Additional observations from a re-analysis of the deposited data

How the results depend on the processing

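No paired analysis was possible because there is 1 pooled level for each region. The density ratio of first to later introns stayed above 1 and the CTCF core difference below 0 under all alternatives, and the level difference stayed above 0. In the following, share means the share of regions in first introns, gene share that of coding genes with such a region, and distance the median distance to the start. With starts more than 500 bp away the share was 10.4%, the distance 17395 bp and the gene share 18.9%, and with 2000 bp they were 8.74%, 20391 bp and 15.2%. With the longest transcript by genomic span they were 10.4%, 19778 bp and 18.02%, and the density ratio was 1.34, or 1.27 within distance bins. With coding starts and exons only the share was 10.2%. Keeping widths of 500 bp or more, the share was 8.62%, the distance 20701 bp, the gene share 9.82%, the density ratio 1.497 (1.51 within bins), the AP-1 difference −0.997 percentage points, the CTCF core difference −0.78 and the level difference 0.12. With midpoints the share was 10.2%, the distance 18017 bp, the gene share 18.3% and the density ratio 1.30 (1.16 within bins). Over whole regions the AP-1 difference was 1.33 percentage points (0.28 to 2.40), past counting error and of the other sign, and the CTCF core difference −3.70. Without gene models with an intron 1 over 1 Mb, chosen after seeing the data, the share was 9.46% and the distance 17660 bp. The CTCF core difference and its alternatives were also chosen after seeing the data. The cause of these shifts was not tested. Of the 10 densest genes, 6 stayed with 500 bp and 3 with 2000 bp from starts, and 1 with regions at least 500 bp wide. Unknown depth limits how many weak regions could have been listed.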

Other observations

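Within long first introns the regions became denser toward the second exon. In the 982 first introns of at least 50 kb and under 1 Mb, which held 3643 pairs, the density over 10 equal parts of the intron rose from 29.8 per Mb in the part nearest to the start to 40.7 and 39.3 in the last 2 parts. The last 2 parts together held 40.01 per Mb and the first 2 held 31.3, a ratio of 1.28 (1.15 to 1.42). In 1751 later introns of the same lengths the 2 ends held 27.7 and 26.9 per Mb, a ratio of 1.03 (0.94 to 1.13). The median level of first-intron regions showed no such course, at 1.94 log2 CPM in both the first and the last part. Neighbouring regions of the same first intron had a median gap of 5042 bp, and 16.8% of the 5875 gaps were at most 1000 bp.

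The lists of genes of other cell types held first-intron regions at lower and at higher density, beside a share of 17.4% of all coding genes with a region. The 20 neuronal genes had long first introns, with a median of 111092 bp. Of these genes 6 (30.0%) had a region, at 5.07 regions per Mb (2.90 to 8.24) against 45.5 over all genes. First introns above 100 kb held 28.2 regions per Mb, and 69.1% of them had a region. Csmd1, which encodes a large membrane protein with CUB and Sushi domains, held 5 regions in 318066 bp with levels up to 2.29, and Dcc, which encodes a receptor of axon guidance, held 1 in 395281 bp at 1.04. Of 18 haematopoietic genes 7 (38.9%, 20.3 to 61.4) had a region, at 96.6 per Mb (56.3 to 155), with low levels: the median of the strongest was 1.55 log2 CPM. Lyn, a Src family kinase gene, accounted for 8 of the 17 regions, up to 3.80, and Spi1, the gene of the myeloid factor PU.1, held 1 at 1.55. Of 12 genes of other mesenchymal lineages 4 (33.3%, 13.8 to 60.9) had a region, at 36.3 per Mb (14.6 to 74.7). Among them were Adipoq, the adiponectin gene, with 2 up to 3.12 and Sox9, a factor of chondrocytes, with 1 at 1.85. Of the 8 with no region, 1 had no usable base, while Pparg and Sox6 had 19282 and 82507 usable bases. None of 7 epithelial genes with an intron had a region, in usable sequence too short to tell (upper limit 102 per Mb).

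First-intron regions differed in density between chromosomes, from 31.8 per Mb on chromosome 13 to 69.3 on chromosome 11 among autosomes, with 66.4 on chromosome 16 and 15.8 on the X chromosome. The ratio to later introns was above 1 on 19 of 19 autosomes, from 1.07 on chromosome 16 to 1.81 on chromosome 8, which carries Gm20388, and to 1.64 at most without that gene model.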
